A study of Mus musculus with 8 samples.

Results

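Iron enters most blood cells bound to transferrin, is kept in ferritin shells and leaves through ferroportin, and the described genes encode these steps and their control. The 10 genes were Tfrc, Slc11a2 and Slc11a1 for uptake and transport, Fth1, Ftl1 and Ncoa4 for storage and ferritin turnover, Slc40a1 for export, Hmox1 for heme breakdown, and Aco1 and Ireb2 for iron sensing. They were picked by gene symbol from the 52550 genes in the expression tables, with earlier results of these data known. RNA was sequenced from pre-pro-B and pro-B cells, early B-lineage stages obtained by cell sorting of C57BL/6J bone marrow. WT mice were compared with mice homozygous for a knockout of lactoferrin (Lf-/-), an iron-binding protein that neutrophils store in granules and whose gene is Ltf. The untreated mice were age-matched littermates of an age not given in the sources used here, and the stages were gated on surface markers, pro-B cells as B220+ CD43+ without IgM. The analysed libraries were WT pre-pro-B replicates 1 and 2, Lf-/- pre-pro-B replicates 1 and 2, WT pro-B replicate 1, and Lf-/- pro-B replicates 1 and 2, 7 in all. WT pro-B replicate 2 was not analysed here. Whether each library came from 1 mouse or from a pool is not stated in the labels, so the p-values below measure the spread between these libraries.

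Levels are given in FPKM, fragments scaled to transcript length and to the mapped fragments of the library, which allows genes to be compared per length. Differences are on the log2(FPKM + 1) scale, which understates changes of genes near 0. The tests were limma fits over all genes that reached 1 FPKM in 2 or more libraries of the comparison, with Benjamini-Hochberg adjustment. Of the 10 genes, 8 passed this filter in every fit, and Aco1 and Ireb2 did not.

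The libraries were read first for identity. Ltf was at 2143 to 2731 FPKM in the 3 WT libraries and at 88.2 to 168 FPKM in the 4 Lf-/- libraries. A list of 18 neutrophil granule genes took 27.7% to 55.6% of the summed FPKM of a library, 17 early B-lineage genes 0.0284% to 0.430%, 11 erythroid genes 1.91% to 15.2%, and 17 monocyte and macrophage genes 0.0932% to 0.268%. Rag1, which B-cell progenitors need to rearrange their antibody genes, was listed at 0 in WT pro-B replicate 1. The early B-lineage sum separated the genotypes, at 237 to 629 FPKM in WT and 1646 to 3585 FPKM in Lf-/- libraries. Most of it was Cd79a, Cd79b and Vpreb3. Over both stages 8 of the 17 genes were higher without overlap in Lf-/- libraries and 9 overlapped, where 11.0% of all genes did not overlap. Vpreb1 overlapped, at 12.1 to 70.0 FPKM in WT and 33.5 to 351 FPKM in Lf-/- libraries. The sum of 7 plasmacytoid dendritic cell genes also separated the genotypes, at 0.0252% to 0.0645% against 0.158% to 0.484% of summed FPKM. Most of that sum was Ly6d, at 134 to 447 FPKM in WT and 899 to 2872 FPKM in Lf-/- libraries. Over both stages 4 of the 7 genes were higher without overlap in Lf-/- libraries and 3 overlapped. Siglech was among the latter, at 3.94 to 7.76 FPKM in WT and 1.98 to 43.8 FPKM in Lf-/- libraries. Of the 17 B-lineage genes, 10 were higher without overlap in Lf-/- pre-pro-B cells and 17 in both Lf-/- pro-B libraries. For the 7 dendritic cell genes these counts were 4 and 7. Over all genes tested, 15.5% were higher without overlap in Lf-/- pre-pro-B cells and 75.3% in both Lf-/- pro-B libraries. These marker differences go with every genotype difference below, and their part in it was not tested. Neutrophil granule transcripts outweighed B-lineage transcripts in every library, against the labelled cell types. Fewer cells of a type and less RNA per cell cannot be told apart in these bulk samples. Lf-/- pre-pro-B replicate 2 stood apart, as it listed 12172 genes above 0 against 19477 to 20250 elsewhere, and 678 of 7741 genes that reached 1 FPKM in every other library (8.76%) were listed at 0 in it. The other libraries held about 10800000 to 15100000 fragments, and the depth of this one is unknown.

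Iron-regulatory proteins bind stem-loops called iron-responsive elements. In the 5′ untranslated region such an element lets them hold back translation when iron is scarce, and in the 3′ untranslated region of the transferrin receptor it lets them protect the mRNA. The elements are shown because RNA sequencing measures mRNA levels and not translation, so it reads only part of this control. The mouse transcripts of GENCODE M21 (GRCm38) were searched on the transcript strand for C, any 5 bases, CAGTGN, and 5 bases that pair fully with the first 5. The loop is in capitals and each run has the flanking bases.
Fth1 5′ UTR, chr19:9982732-9982760, plus strand: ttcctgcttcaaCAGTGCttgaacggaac
Ftl1 5′ UTR, chr7:45459779-45459807, minus strand: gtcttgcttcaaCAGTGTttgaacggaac
Slc40a1 5′ UTR, chr1:45925465-45925493, minus strand: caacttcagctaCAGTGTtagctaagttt
Tfrc 3′ UTR, chr16:32631219-32631247, plus strand: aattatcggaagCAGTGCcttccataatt
Tfrc 3′ UTR, chr16:32631598-32631626, plus strand: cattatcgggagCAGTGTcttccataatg
Tfrc 3′ UTR, chr16:32631663-32631691, plus strand: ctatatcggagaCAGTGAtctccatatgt
Tfrc 3′ UTR, chr16:32631710-32631738, plus strand: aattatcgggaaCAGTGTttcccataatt
A match lay in the 5′ UTR of 31 of 21200 genes (0.146%) and in the 3′ UTR of 144 of 21849 genes (0.659%). Fth1, Ftl1 and Slc40a1 each had 1 match in the 5′ UTR, Tfrc had 4 in the 3′ UTR, and the other 6 genes had none for these letters. An element with a mismatch or an extra base in the stem would be missed, so no match does not mean that a gene lacks one.

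**Figure D1:**
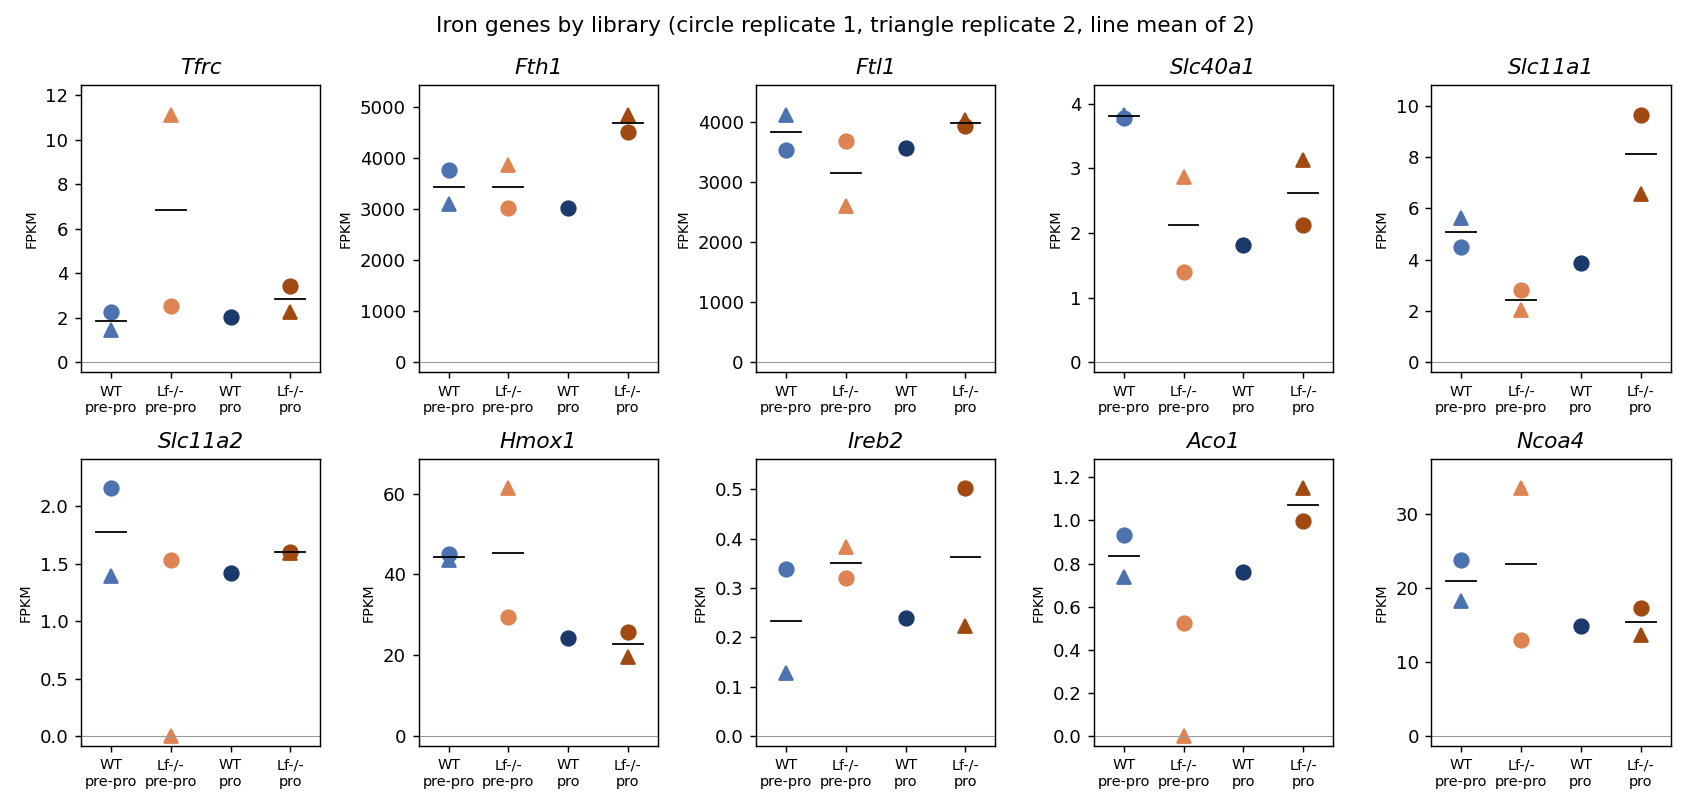
FPKM of the 10 iron genes in each of the 7 libraries, by genotype and stage, on linear axes that start at or just below 0. Circles are replicate 1, triangles replicate 2, and lines the mean of 2 libraries where neither is listed at 0. Both ferritin chains sit between 2604 and 4858 FPKM, Tfrc has a single high library (Lf-/- pre-pro-B replicate 2, 11.1 FPKM), and Slc11a1 is lowest in Lf-/- pre-pro-B and highest in Lf-/- pro-B cells.

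Ferritin transcripts dominated the set in every library. Ferritin is a hollow shell of heavy chains (Fth1, chr19:9980598-9985098), which oxidise iron for storage, and light chains (Ftl1, chr7:45457944-45459884), which help it mineralise. Fth1 was at 3767 and 3102 FPKM (WT) and at 3025 and 3860 FPKM (Lf-/-) among pre-pro-B libraries, and at 3033 FPKM (WT) and at 4522 and 4858 FPKM (Lf-/-) among pro-B libraries. Ftl1 was at 3528 and 4117 FPKM (WT) and at 3684 and 2604 FPKM (Lf-/-) among pre-pro-B libraries, and at 3557 FPKM (WT) and at 3920 and 4031 FPKM (Lf-/-) among pro-B libraries. The genotypes overlapped in pre-pro-B cells for both chains, while in pro-B cells both Lf-/- libraries lay above the single WT library. Together the chains made up 0.789% to 1.21% of a library's summed FPKM. Fth1 ranked 18 to 31 and Ftl1 21 to 27 among all genes of a library.

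The balance of the chains differed between libraries of one group. The Fth1 to Ftl1 ratio among pre-pro-B libraries was 1.07 and 0.753 (WT) and 0.821 and 1.48 (Lf-/-), and among pro-B libraries 0.853 (WT) and 1.15 and 1.20 (Lf-/-). Heavy chain exceeded light chain in both Lf-/- pro-B libraries, in 1 of 2 libraries of each pre-pro-B group, and not in WT pro-B. The highest ratio belonged to Lf-/- pre-pro-B replicate 2, the library with many genes listed at 0.

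Reads of Ftl1 can be shared with copies of the gene. By blastn, 9 genes matched an Ftl1 transcript at 90% identity or more over at least 300 bases, among them Ftl1-ps1 (99.56% over 910 bases, mean 727 FPKM), Ftl2-ps (98.7% over 552 bases, mean 403 FPKM) and Gm15590 (99.1% over 552 bases, mean 126 FPKM). The copies held 21.9% of the summed value of Ftl1 and copies in Lf-/- pre-pro-B replicate 2 and 24.5% to 28.3% in the other libraries, so the Ftl1 level is uncertain to that extent. Fth1 had 1 such copy, Gm6977, listed at 0 in 6 of the 7 libraries.

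**Figure D2:**
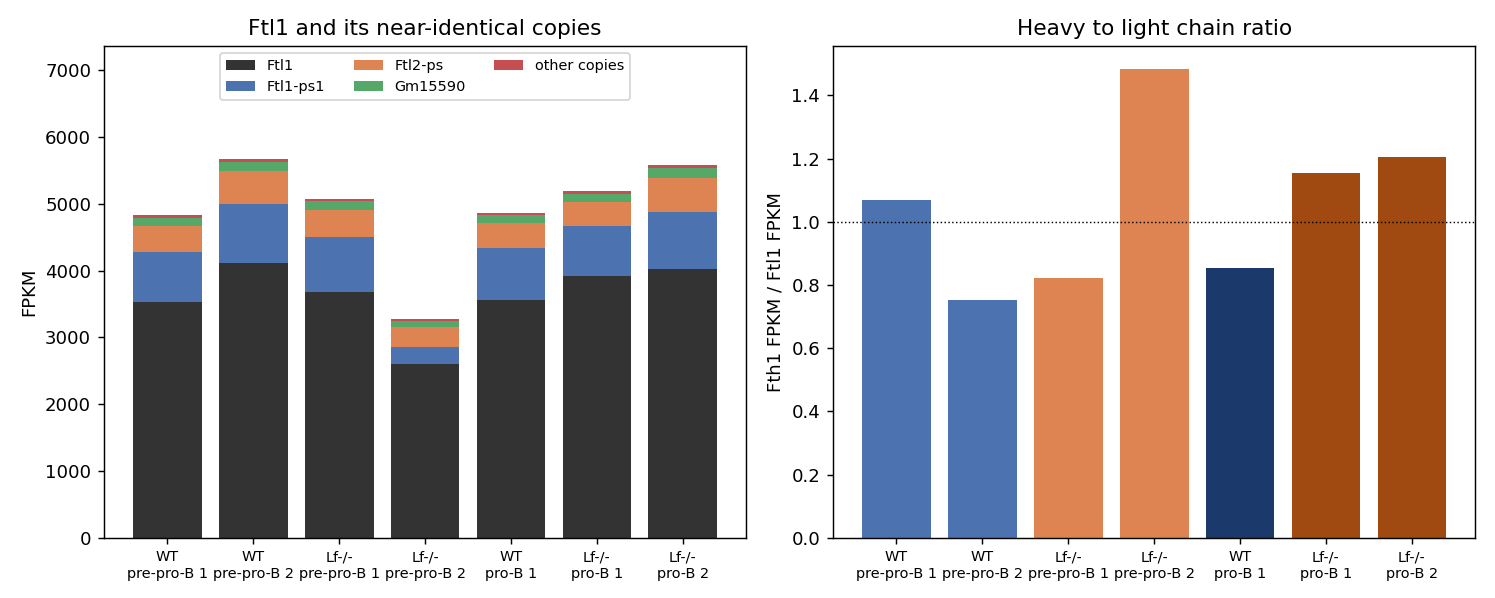
Left, stacked FPKM of Ftl1 and of its near-identical protein-coding or pseudogene copies in each library. Right, the ratio of Fth1 to Ftl1 FPKM, with a dotted line at 1. The copies hold 21.9% to 28.3% of each stack, counting also the 2 copies of other gene types that are not drawn, and the ratio runs from 0.753 in WT pre-pro-B replicate 2 to 1.48 in Lf-/- pre-pro-B replicate 2.

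Ncoa4 (chr14:32159865-32179855), the receptor that delivers ferritin to lysosomes so that its iron is released, was far below its cargo. It was at 23.7 and 18.2 FPKM (WT) and at 12.9 and 33.4 FPKM (Lf-/-) among pre-pro-B libraries, and at 14.8 FPKM (WT) and at 17.2 and 13.6 FPKM (Lf-/-) among pro-B libraries. Its highest and lowest values were the replicates of Lf-/- pre-pro-B cells, and genotypes overlapped at both stages. The processed pseudogene Gm6768 matched Ncoa4 at 99.9% over 1878 bases with a mean of 16.3 FPKM, and held 36.0% to 55.4% of their summed value, so how reads were divided between them bears on every Ncoa4 value.

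Tfrc (chr16:32608920-32632794), the receptor that takes up transferrin-bound iron, was at 2.27 and 1.43 FPKM (WT) and at 2.53 and 11.1 FPKM (Lf-/-) among pre-pro-B libraries, and at 2.01 FPKM (WT) and at 3.44 and 2.26 FPKM (Lf-/-) among pro-B libraries. The Lf-/- libraries were above the WT libraries within each stage, while over both stages the groups overlapped slightly, Lf-/- pro-B replicate 2 lying below WT pre-pro-B replicate 1. The size of the pre-pro-B difference came from replicate 2: the log2 difference was 1.21 (SE 0.70, 95% interval -0.52 to 2.95, n = 2 and 2, limma adjusted p = 0.941), and it was 0.32 without that library. In the same library the erythroid markers Alas2 and Hba-a1 were at 266 and 45060 FPKM, against 6.26 to 32.3 and 6598 to 31445 FPKM elsewhere. The part of erythroid cells, which carry much transferrin receptor, was not tested.

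Slc11a2 (chr15:100387898-100425072), the divalent metal transporter that moves iron out of endosomes, was at 2.16 and 1.39 FPKM (WT) and at 1.53 FPKM (Lf-/- replicate 1) among pre-pro-B libraries, and at 1.42 FPKM (WT) and at 1.60 and 1.60 FPKM (Lf-/-) among pro-B libraries. In Lf-/- pre-pro-B replicate 2 it was listed at 0. Over the other 6 libraries it spanned 0.40 on the log2(FPKM + 1) scale, the least of the genes that passed the filter apart from Ftl1.

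Slc11a1 (chr1:74375195-74386062), which pumps metal ions out of phagosomes in macrophages and neutrophils, was ordered differently in the stages. It was at 4.50 and 5.63 FPKM (WT) and at 2.80 and 2.04 FPKM (Lf-/-) among pre-pro-B libraries, and at 3.86 FPKM (WT) and at 9.66 and 6.55 FPKM (Lf-/-) among pro-B libraries. Both Lf-/- pre-pro-B libraries lay below every other library, and both Lf-/- pro-B libraries above every other library. The neutrophil genes Mmp8, Mmp9 and Retnlg, chosen from the neutrophil list after their values were seen, were also highest in Lf-/- pro-B replicate 1, at 344, 210 and 10205 FPKM. In Lf-/- pre-pro-B replicate 2, where Slc11a1 was lowest, Mmp8 and Mmp9 were instead at 121 and 78.2 FPKM, above both WT pre-pro-B libraries (53.7 and 85.1 FPKM for Mmp8, 42.9 and 65.9 FPKM for Mmp9). Of the 18 neutrophil genes, 8 were lower and 0 higher without overlap in Lf-/- pre-pro-B cells, and in pro-B cells 12 were lower and 5 higher in both Lf-/- libraries than in the WT library. Over all genes tested, 17.7% were lower and 15.5% higher without overlap in pre-pro-B cells, and 6.9% were lower and 75.3% higher in both Lf-/- pro-B libraries. The summed list took 41.3% to 42.0% (WT) and 27.7% to 39.6% (Lf-/-) of FPKM among pre-pro-B libraries and 55.6% (WT) and 37.3% to 42.2% (Lf-/-) among pro-B libraries, with no gene at 0. The part of neutrophil content in Slc11a1 was not tested.

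Slc40a1 (chr1:45908068-45926523) encodes ferroportin, the channel through which cells export iron, and it is abundant in macrophages that recycle iron. It was at 3.78 and 3.83 FPKM (WT) and at 1.39 and 2.86 FPKM (Lf-/-) among pre-pro-B libraries, and at 1.82 FPKM (WT) and at 2.12 and 3.13 FPKM (Lf-/-) among pro-B libraries. The WT pre-pro-B libraries were the highest 2 and differed by little, and both Lf-/- pre-pro-B libraries lay below them.

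Hmox1 (chr8:75093621-75100589), heme oxygenase, frees iron from heme. It was at 45.0 and 43.7 FPKM (WT) and at 29.4 and 61.3 FPKM (Lf-/-) among pre-pro-B libraries, and at 24.1 FPKM (WT) and at 25.8 and 19.6 FPKM (Lf-/-) among pro-B libraries. Every pro-B library was below every pre-pro-B library, and in each stage the WT values lay between the Lf-/- values.

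Some monocyte and macrophage markers were also lower in the comparisons where these genes were. C1qa, a complement gene of tissue macrophages, was at 44.7 and 44.3 FPKM (WT) and at 28.1 and 26.1 FPKM (Lf-/-) among pre-pro-B libraries, and at 18.0 FPKM (WT) and at 6.89 and 11.2 FPKM (Lf-/-) among pro-B libraries. Of the 17 markers, 5 were lower, 0 higher and 12 overlapping in pro-B against pre-pro-B cells, where 0.945% of all genes were lower. In Lf-/- against WT pre-pro-B cells 9 were lower and 0 higher without overlap, where 17.7% of all genes were lower and 15.5% higher. At the pro-B stage, where Slc40a1 was higher in both Lf-/- libraries than in the WT library, 5 markers were higher and 8 lower in both. Over all genes tested, 75.3% were higher and 6.9% lower in both. The sum of the 17 markers was 1253 to 2073 FPKM (WT) and 795 to 1104 FPKM (Lf-/-) among pre-pro-B libraries. Among pro-B libraries it was 1147 FPKM (WT) and 685 to 912 FPKM (Lf-/-). Most of this sum was 1 gene, Ly6c2, at 563 to 1812 FPKM, so it says little of the other markers. Csf1r, Adgre1, Cd68, Fcgr1, Ms4a7 and Mrc1 were highest in Lf-/- pre-pro-B replicate 2. Spic, Mertk, Maf and Axl were listed at 0 in Lf-/- pre-pro-B replicate 2, and Mertk in Lf-/- pro-B replicate 2. The part of macrophage content in Slc40a1 and Hmox1 was not tested.

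**Figure D3:**
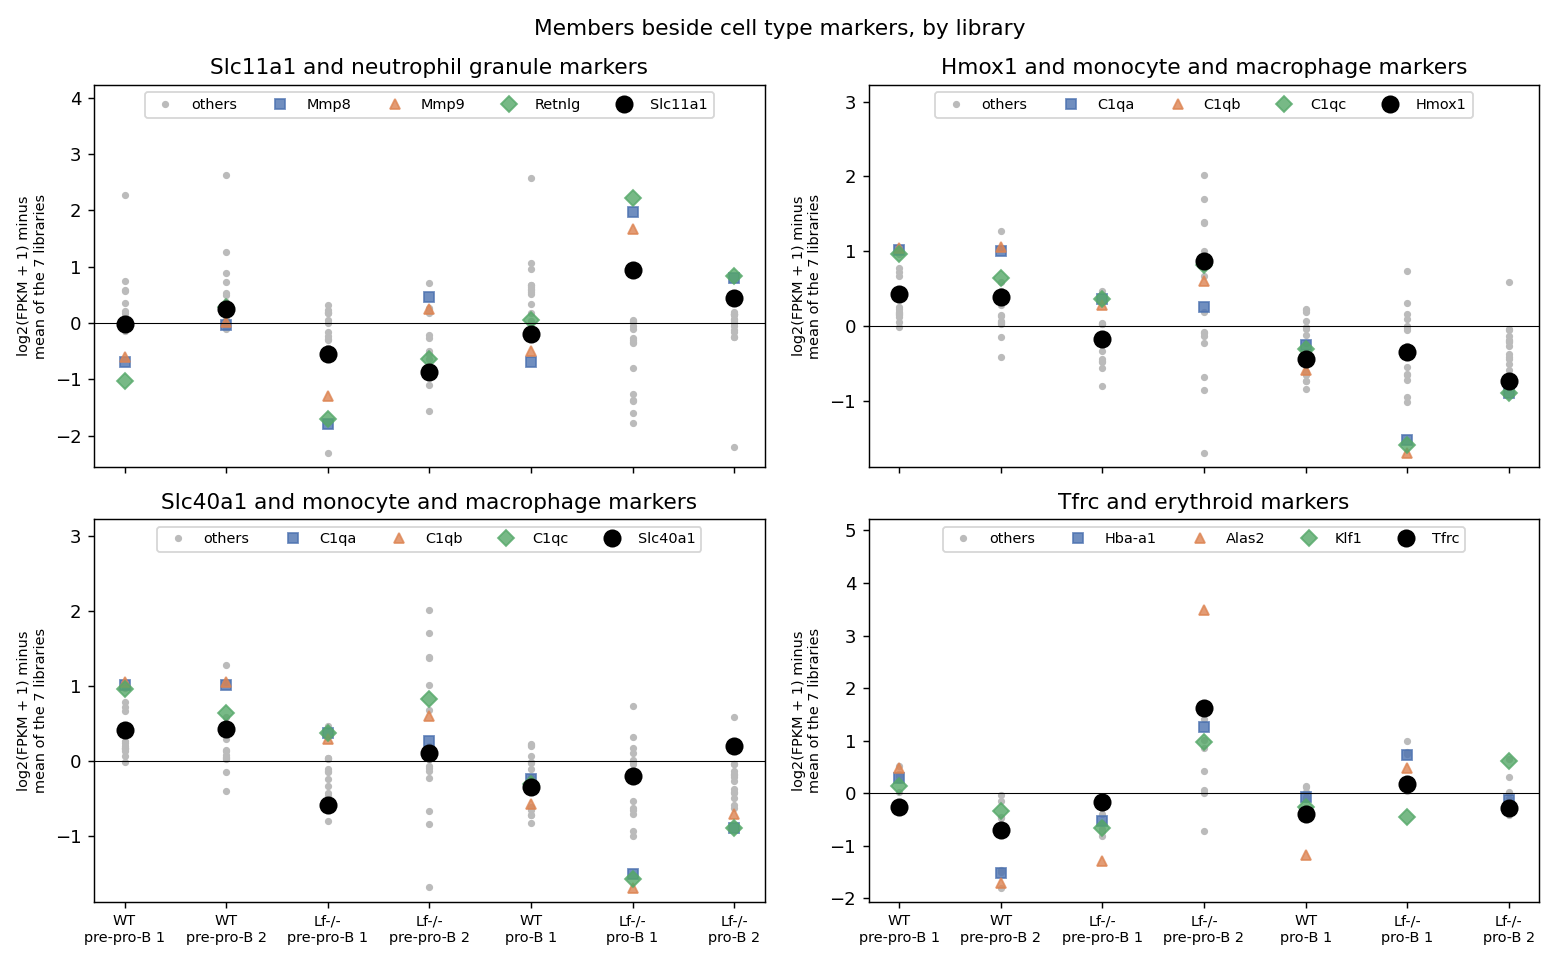
Slc11a1, Hmox1, Slc40a1 and Tfrc (black) beside the whole marker list of 1 cell type each (grey, with 3 markers coloured), as log2(FPKM + 1) minus the mean of the 7 libraries. Mmp8, Mmp9 and Retnlg are highest in Lf-/- pro-B replicate 1 as is Slc11a1, the C1q genes and Hmox1 are lower in pro-B libraries, and Alas2 and Tfrc are highest in Lf-/- pre-pro-B replicate 2.

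The iron sensors were the lowest of the set. Aco1 (chr4:40143081-40198338), whose protein is an aconitase or an iron-regulatory protein depending on its iron-sulfur cluster, was at 0.932 and 0.738 FPKM (WT) and at 0.523 FPKM (Lf-/- replicate 1) among pre-pro-B libraries, and at 0.763 FPKM (WT) and at 0.999 and 1.15 FPKM (Lf-/-) among pro-B libraries. It was listed at 0 in Lf-/- pre-pro-B replicate 2. Its levels were below WT in both Lf-/- pre-pro-B libraries and above WT in both Lf-/- pro-B libraries. Ireb2 (chr9:54863789-54912530), the sensor that is degraded when iron is plentiful, was at 0.339 and 0.127 FPKM (WT) and at 0.319 and 0.383 FPKM (Lf-/-) among pre-pro-B libraries, and at 0.240 FPKM (WT) and at 0.502 and 0.222 FPKM (Lf-/-) among pro-B libraries. Genotypes overlapped at both stages. At the longest Ireb2 transcript the lowest value corresponds to about 9 fragments and the highest to about 32, so its values rest on few fragments.

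The order of levels was much the same in each group. Both ferritin chains came first, then Hmox1, then Ncoa4, with Aco1 and Ireb2 last. The chains changed places between groups and overlapped in both pre-pro-B groups, as did Hmox1 and Ncoa4 in Lf-/- pre-pro-B cells. Tfrc overlapped with Slc11a2 in WT pre-pro-B and with Slc40a1 in Lf-/- pro-B cells, and in Lf-/- pre-pro-B cells every neighbouring pair from Tfrc down to Aco1 overlapped, so their order was not resolved there. In WT pro-B cells the order rests on 1 library.

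The first comparison asked how loss of lactoferrin went with the iron genes in pre-pro-B cells. No iron gene passed an adjusted p of 0.05 in limma (0 of 8), and none passed an unadjusted p of 0.05. The background was 0.0% of 9720 genes at the adjusted threshold and 2.92% at the unadjusted one. Slc11a1 had a mean of 5.07 ± 0.805 FPKM in WT and 2.42 ± 0.540 in Lf-/- cells (SD, n = 2 each), a log2 difference of -0.83 (SE 0.46, 95% interval -1.97 to 0.31, limma adjusted p = 0.941). Slc40a1 had 3.81 ± 0.0370 and 2.13 ± 1.04 FPKM (SD, n = 2 each), a difference of -0.66 (interval -1.87 to 0.55). The intervals of these genes and of Tfrc include 0 and reach changes of over 2-fold, so a change of that size was not resolved. Without Lf-/- pre-pro-B replicate 2 the Slc40a1 difference was -1.01 (limma adjusted p = 0.566). In that fit the lone Lf-/- library is assumed to vary like WT, and 753 of 9328 genes (8.07%), Slc40a1 among them, passed the unadjusted 0.05. The difference of Slc11a1 was between -0.99 and -0.67 whichever library was left out.

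For Fth1, Ncoa4 and Hmox1 the group means were close, but the replicates were not. The log2 differences were -0.00049 for Fth1 (interval -1.16 to 1.16), 0.0063 for Ncoa4 (interval -1.40 to 1.41) and -0.058 for Hmox1 (interval -1.29 to 1.17), and that of Ftl1 was -0.30 (interval -1.49 to 0.89). Leaving out Lf-/- replicate 1 gave 0.46 for Hmox1 and 0.66 for Ncoa4, and leaving out replicate 2 gave -0.57 and -0.65. The 8 tested genes had a median of -0.18, beside 0.035 over all genes tested, and 2 were higher and 6 lower. Scaling by the median ratio of genes moved the all-gene median to -0.096 and, under it, Ncoa4 changed sign to -0.16. Groups did not overlap for Tfrc (higher), and Slc40a1 and Slc11a1 (lower) of the 8, and for Aco1 (lower) among the genes below the filter. Over all genes tested 33.2% did not overlap, 15.5% higher and 17.7% lower. The smallest p an exact permutation test of 2 against 2 libraries allows is 0.333.

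This result depended on Lf-/- pre-pro-B replicate 1. Without it, Lf-/- was represented by replicate 2 alone, which was then assumed to vary like WT, and Tfrc (2.10, SE 0.33, limma adjusted p = 0.0174) and Slc11a2 (-1.46, SE 0.28, limma adjusted p = 0.0214) passed. In that fit 3338 of 9143 genes (36.5%) passed as well.

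The same question in pro-B cells had 2 Lf-/- libraries against 1 WT library. On the log2(FPKM + 1) scale none of the 8 genes was 2-fold apart, against 13.5% of 10793 genes. In plain FPKM, Slc11a1 was at 3.86 in WT and at a mean of 8.10 in Lf-/- pro-B cells. With a pseudocount of 0.1 in place of 1 its log2 difference was 1.02. The log2 differences were 0.88 for Slc11a1, 0.63 for Fth1, 0.35 for Slc40a1, 0.34 for Tfrc, 0.16 for Ftl1, 0.10 for Slc11a2, 0.044 for Ncoa4 and -0.095 for Hmox1. Both Lf-/- values were above WT for 6 genes, Tfrc, Fth1, Ftl1, Slc40a1, Slc11a1 and Slc11a2, but so were they for 75.3% of all genes, and the median over all genes was 0.48 beside 0.25 for the iron genes. Relative to that median Slc11a1 was 0.40 and Fth1 0.14 higher, Ftl1 was at -0.32 and Hmox1 at -0.58. Under median-ratio scaling the all-gene median was 0.014, Slc11a1 was at 0.34 with both Lf-/- values above WT (background 36.6%), and the other 7 genes were below 0, from -0.72 for Hmox1 to -0.020 for Fth1, with 0 of 8 at 2-fold (background 7.62%).

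A fit of all 4 groups, in which the lone WT pro-B library is assumed to vary like the others, gave Slc11a1 a pro-B difference of 0.88 (95% interval -0.28 to 2.05, limma adjusted p = 0.822). The Fth1 difference of 0.63 had an interval of -0.54 to 1.80 (limma adjusted p = 0.822).

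**Figure D4:**
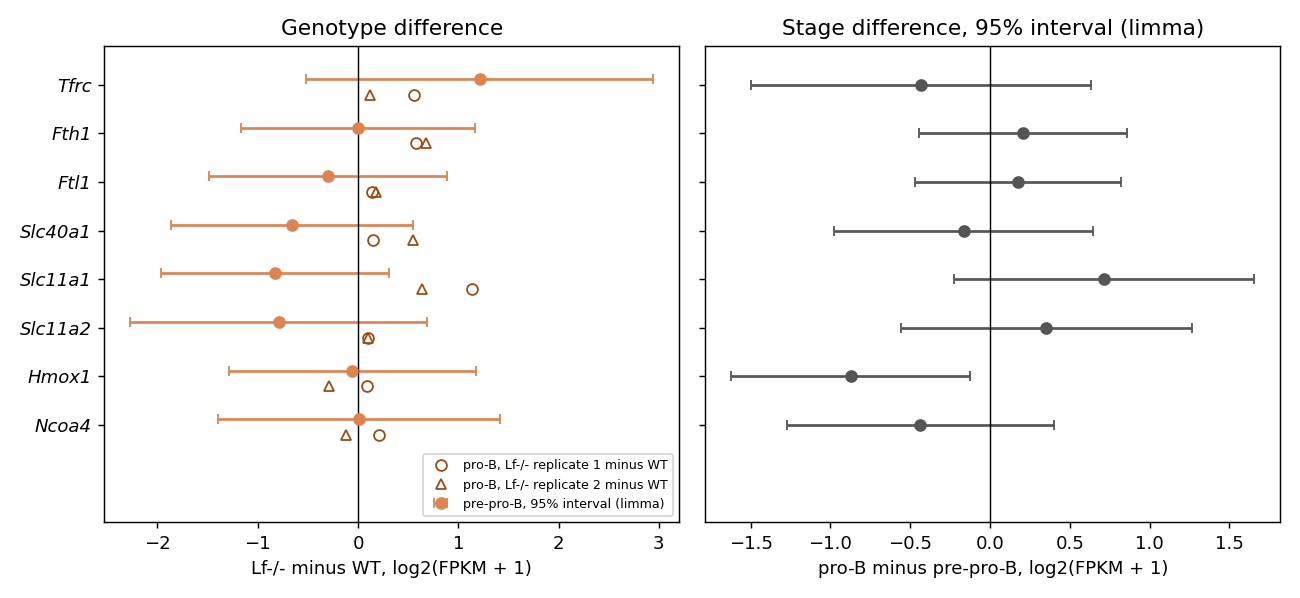
Left, log2(FPKM + 1) differences of Lf-/- minus WT for the 8 genes that passed the filter, with the limma 95% interval in pre-pro-B cells (filled) and each Lf-/- pro-B library minus the single WT pro-B library (open). Right, the difference of pro-B minus pre-pro-B cells over both genotypes with its 95% interval. All pre-pro-B intervals include 0, and the stage interval of Hmox1 (-1.62 to -0.13) does not.

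Over both stages, with stage as a term, 0 of 8 genes passed an adjusted or unadjusted p of 0.05 for genotype, against 0.185% and 7.17% of 10793 genes. No iron gene kept the genotypes apart over both stages, against 11.0% of genes. The differences ran from -0.43 for Slc11a2 to 0.86 for Tfrc (SE 0.47, 95% interval -0.20 to 1.93, limma adjusted p = 0.689). Leaving out Lf-/- pre-pro-B replicate 2 gave Tfrc 0.33. The median was -0.094, beside 0.21 over all genes, which median-ratio scaling moved to -0.059. Fth1 was at 0.25 and at -0.11 under that scaling.

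The second comparison asked what differed between stages, which here are the labels of the libraries. The early B-lineage markers did not separate these labels: 0 of 17 were higher and 0 lower without overlap, with a median log2 difference of -0.22. Their sum was 237 FPKM in WT pro-B replicate 1 and 607 to 629 FPKM in WT pre-pro-B libraries. Hmox1 was lower in pro-B cells, at 24.1, 25.8 and 19.6 FPKM against 29.4 to 61.3 FPKM in the pre-pro-B libraries, and was the only iron gene whose stages did not overlap (background 2.15%, lower 0.945%). Its log2 difference was -0.87 (SE 0.33, 95% interval -1.62 to -0.13, n = 3 and 4). It passed an unadjusted limma p of 0.05, as did 2.41% of all genes, and not after adjustment (adjusted p = 0.947), where 0.00927% of all genes passed. Leaving out any 1 library gave -1.13 to -0.61, and the unadjusted call was lost in 5 of these 7 fits, all but those without Lf-/- pre-pro-B replicate 1 or Lf-/- pro-B replicate 1. Of the 17 macrophage markers 5 were lower without overlap in the same libraries and 12 overlapped, and their part was not tested. Slc11a1 was at 0.72 and Ncoa4 at -0.44, with intervals that include 0, and without WT pro-B replicate 1 Slc11a1 was at 1.40 (limma adjusted p = 0.678).

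The third comparison asked whether the genotype difference itself differed between stages. For Slc11a1 the pro-B difference exceeded the pre-pro-B difference by 1.71 (SE 0.64, 95% interval 0.21 to 3.22, n = 7), with a range of 1.47 to 1.96 when 1 library was left out. It passed an unadjusted limma p of 0.05, which it lost in 4 of these 6 fits, without either WT pre-pro-B or either Lf-/- pro-B library. The unadjusted threshold was passed by 2.74% of all genes, and after adjustment neither Slc11a1 (adjusted p = 0.990) nor any gene passed (background 0.0%). The median over all genes was 0.45, and with median-ratio scaling, where it was 0.070, Slc11a1 was at 1.28 and no longer passed the unadjusted threshold. Slc40a1 was at 1.01 (SE 0.67, interval -0.57 to 2.60, limma adjusted p = 0.990). Genes with the opposite order in the stages, in either direction, and no overlap in either stage made up 11.6% of 9720 genes.

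The wider iron pathway was read from 7 lists of 62 genes that include the 10, of which 60 were found in the tables and 43 passed the filter. None of the 43 passed an adjusted limma p of 0.05 in any of the 4 fits. At an unadjusted 0.05, 1 was lower in Lf-/- pre-pro-B cells, 1 was higher over both stages, 1 was lower in pro-B cells, and 2 were higher in the stage difference of genotype. The shares over all genes were 2.92%, 7.17%, 2.41% and 2.74% in these fits. The medians of the 43 were -0.058 in pre-pro-B cells and 0.022 over both stages, beside 0.035 and 0.21 over all genes.

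Among 9 tested uptake genes, 4 were higher and 5 lower in Lf-/- cells over both stages. Cyb561a3, a ferrireductase of endosomes and lysosomes, was at 30.5 and 41.1 FPKM (WT) and at 33.1 and 82.7 FPKM (Lf-/-) among pre-pro-B libraries, and at 19.8 FPKM (WT) and at 69.5 and 57.3 FPKM (Lf-/-) among pro-B libraries. It was higher by 0.98 (SE 0.40, 95% interval 0.068 to 1.90) over both stages, past the unadjusted 0.05 in limma but not after adjustment (adjusted p = 0.669). The difference was 0.55 without WT pro-B replicate 1 and 0.63 under median-ratio scaling. Hfe, which binds the transferrin receptor, was at 3.30 and 5.26 FPKM in WT pre-pro-B, 1.87 FPKM in Lf-/- pre-pro-B replicate 1 and 2.46 to 3.19 FPKM in pro-B cells, and was listed at 0 in Lf-/- pre-pro-B replicate 2. Its pre-pro-B difference was -1.61 (limma adjusted p = 0.941, past the unadjusted 0.05). Trf, transferrin itself, was at 24.2 and 20.9 FPKM (WT) and at 13.2 and 9.37 FPKM (Lf-/-) among pre-pro-B libraries, and at 9.74 FPKM (WT) and at 22.1 and 13.5 FPKM (Lf-/-) among pro-B libraries. Like Slc11a1 it was below WT in pre-pro-B and above WT in pro-B Lf-/- libraries, and its stage difference of genotype was 1.73 (limma adjusted p = 0.990, past the unadjusted 0.05). Mcoln1, a lysosomal cation channel, reached 9.34 FPKM in replicate 2 of Lf-/- pre-pro-B cells and 1.44 to 2.41 FPKM elsewhere.

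The remaining lists held no gene past the unadjusted threshold for genotype. Of 5 tested storage and ferritin turnover genes, the iron chaperone Pcbp2 reached 53.2 FPKM in replicate 2 of Lf-/- pre-pro-B cells and 15.5 to 19.5 FPKM elsewhere, and its relative Pcbp1 was at 119 to 153 FPKM in all libraries. Slc40a1 was the only one of 6 export genes to pass the filter. Among 7 tested heme transport and breakdown genes, Hmox2, the constitutive heme oxygenase, reached 84.7 FPKM in the same library and 18.2 to 35.2 FPKM elsewhere. Bach1, a heme-binding repressor of Hmox1 transcription, was at 1.54 to 4.14 FPKM, and the lysosomal heme transporter Slc48a1 at 16.1 to 37.0 FPKM. Fbxl5, which marks Ireb2 protein for degradation in iron-replete cells, was at 1.79 to 5.20 FPKM, above both of the sensors themselves.

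The named mitochondrial and heme synthesis genes had their extremes in the same library. In 11 tested mitochondrial iron and iron-sulfur cluster genes, the scaffold Iscu was at 75.9 FPKM, Isca2 at 40.2 FPKM and the mitochondrial iron importer Slc25a37 at 7.84 FPKM in that Lf-/- pre-pro-B replicate 2, the highest value of each. Over both stages Iscu was at 0.82 (SE 0.38, 95% interval -0.033 to 1.67, limma adjusted p = 0.689). In 9 tested heme synthesis genes, Alas2, the erythroid enzyme of the first step, had a difference of 1.54 over both stages (SE 1.02), which was 0.30 without Lf-/- pre-pro-B replicate 2. Ppox was highest in that library at 23.1 FPKM, and Cpox lowest there at 4.01 FPKM against 11.6 to 30.5 FPKM elsewhere.

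Genes with the most similar pattern were listed for the 7 iron genes that spanned at least 1 on the log2(FPKM + 1) scale, as a description over 7 libraries that share their differences in content and depth. The highest Pearson correlations were 0.995 with Serinc1 for Tfrc, 0.994 with Tprn for Slc11a2, 0.991 with Fbxo36 for Aco1, 0.989 with Gm4956 for Slc11a1, 0.986 with Mrps15 for Slc40a1, 0.984 with Eral1 for Ncoa4 and 0.964 with Azin1 for Hmox1. Tfrc had 909 genes and Slc11a2 838 genes above 0.9 of 10792 compared, and both had their extreme in Lf-/- pre-pro-B replicate 2. Slc40a1 had 54 and Hmox1 20 such genes. Without Lf-/- pre-pro-B replicate 2 the correlation with the same partner was 0.978 for Tfrc, 0.928 for Slc11a2, 0.965 for Aco1 and 0.983 for Slc11a1. For Slc40a1 it was 0.986, for Ncoa4 0.958 and for Hmox1 0.947. The partners were picked as the highest over libraries that include those kept, so these values are no independent check.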

How the data were processed

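RNA sequencing of the 4 groups was read from 7 deposited tables, each with 1 value per gene. The submitters' processing notes name GRCm38, TopHat, Cufflinks, HTSeq and DESeq, without versions or roles, and the annotation is not given in the sources used here. The deposited FPKM values were made by the authors, and the unit was read off the numbers, which are fractional and, multiplied by transcript length, fall on even steps in 6 libraries. The steps gave the depths. Genes were matched by identifier to GENCODE M21 (52403 of 52550).

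Values were transformed to log2(FPKM + 1). Genes that reached 1 FPKM in 2 or more libraries were fitted with limma 3.58.1 in R 4.3.3, using its mean-variance trend. Pre-pro-B libraries were fitted alone, and the other fits held genotype and stage, with or without their interaction. Two-sided p-values were adjusted by the Benjamini-Hochberg method over all genes tested, and scripts were tested on simulated data. The pro-B comparison, with 1 WT library, was counted where the difference was 2-fold or more and neither Lf-/- library crossed the WT value. That fold was taken on the log2(FPKM + 1) scale. Copies were found with blastn 2.17.0. The members and lists were chosen with earlier results of these data known. Named genes were the 10 members, the 3 other genes per list with the largest genotype difference over both stages and a mean of at least 1 FPKM, the most similar genes, Ltf and markers beside a result. Trf was added after its values were seen. Of 62 iron genes Flvcr1 and Flvcr2, and of the erythroid markers Ahsp, had no row by that symbol. The 9 T and NK cell markers took 0.0530% to 0.167% of summed FPKM, most of it from 1 gene, Nkg7, at 324 to 1283 FPKM. Intervals from counting error were not calculated. The alternatives were other scalings, filters, pseudocounts, summed copies, blocks and leaving out each library.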

Additional observations from a re-analysis of the deposited data

Results flagged for a closer look

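For 3 of the 10 genes every Lf-/- pre-pro-B library lay below the WT libraries and every Lf-/- pro-B library above the WT library. The pro-B difference exceeded the pre-pro-B difference by 1.71 on the log2(FPKM + 1) scale for Slc11a1 (limma adjusted p = 0.990), by 1.01 for Slc40a1 (limma adjusted p = 0.990) and by 0.80 for Aco1 (limma without the filter on low values, adjusted p = 0.842). None passed the adjusted threshold. Of the 9720 genes tested in pre-pro-B cells, 11.6% lay on opposite sides of WT in the 2 stages without overlap, counting both directions. Aco1 was not among the genes tested there. For Aco1 the pattern includes a library in which the gene was listed at 0. Under median-ratio scaling Slc40a1 no longer showed it: its pro-B difference was -0.094 with the Lf-/- values on both sides of WT, and the interaction was 0.70. The all-gene interaction median was 0.45 unscaled and 0.070 scaled.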

How the results depend on the processing

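No iron gene passed the adjusted threshold over both stages, between stages or in the interaction under any alternative run. In pre-pro-B cells 0 to 2 genes passed when 1 library was left out, and Tfrc and Slc11a2 were those that passed without Lf-/- replicate 1. In pro-B cells a pseudocount of 0.1 put 1 gene 2-fold apart (Slc11a1, 1.02), and leaving out a library gave 0 to 1 (Slc11a1 without Lf-/- replicate 2). Directions turned for small differences. In pre-pro-B cells Fth1 was 0.094 under quantile normalization and -0.18 to 0.18 without 1 library. Hmox1 was -0.57 to 0.46 without 1 library. Ncoa4 was -0.16 under median-ratio scaling, -0.15 under quantile normalization, -0.17 with its copy summed (an alternative chosen after seeing the data) and -0.65 to 0.66 without 1 library. Over both stages Fth1 was -0.11 under median-ratio scaling and -0.00049 to 0.40 without 1 library, Pcbp1 was -0.18 to 0.056 without 1 library, and Bach1 was -0.0039 under quantile normalization. The causes were not tested.

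Over all genes, the pre-pro-B count at an unadjusted p of 0.05 was 284, and 649 with no filter, 528 in the 4-group fit, 4416 without Lf-/- replicate 1, 753 without Lf-/- replicate 2, 177 without WT replicate 1 and 140 without WT replicate 2. The adjusted count over both stages was 20, and 63 with the strictest filter, 7 under median-ratio scaling, 10 under quantile normalization, 9 with a pseudocount of 0.1, 0 with no filter or without WT pro-B replicate 1, and 3 to 123 without any other library (123 without Lf-/- pre-pro-B replicate 2). Replicate numbers recur at both stages, and the labels do not say whether they stand for the same mice. The main fits took the libraries as unpaired. Differences between replicates 1 and 2 correlated at -0.013 between Lf-/- pre-pro-B and Lf-/- pro-B cells over 10793 genes, a value that includes Lf-/- pre-pro-B replicate 2. The other correlations, 0.039 and 0.053, were between genotypes and cannot show pairing by mouse. With a replicate block 65 genes passed the adjusted threshold in pre-pro-B cells, 0 of them iron genes, and the block gave Tfrc 1.21 and Slc11a1 -0.83 there. A replicate block of genotype and number gave Hmox1 -0.88 between stages and 0 iron genes at the unadjusted threshold. Depth limits Ireb2 and Aco1 most, and 1 WT pro-B library limits the pro-B comparison.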
